A study of Mus musculus with 4 samples.

Results

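Colonic fibroblasts that remained in CD45+ cell preparations of inflamed mouse colon are described here, cell by cell, from raw counts of unique molecular identifiers (UMIs, one per captured transcript). A cell was taken as a fibroblast when it held at least 10 UMIs of the collagen genes Col1a1, Col1a2 and Col3a1 together, at least 1 UMI of Dcn or Pdgfra, and none of 7 genes of other lineages (Ptprc, Cd3e, Cd79a, Csf3r, Csf1r, Cdh5 and Epcam), after cells with under 200 genes or with 20% or more mitochondrial UMIs had been set aside. This selection gave 317 fibroblasts among 43432 kept cells, out of 45229 cells deposited. The levels of those selecting genes are therefore part of the choice and are given as a description only.

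The mice, either wild type (AhR+/+) or null for the aryl hydrocarbon receptor (AhR-/-), drank 2% dextran sulfate sodium (DSS), a polymer toxic to gut epithelial cells, for 7 days, and colons were taken on day 8. Each of the 4 samples pooled the colons of 3 mice of the same group, was digested, passed through anti-CD45 magnetic beads and sequenced on the 10x Genomics platform. All 4 samples are labelled as DSS-treated and 10 weeks old, and the study's own description of the experiment states another age. No label gives the AhR genotype of a sample, so samples 1 to 4 are read one by one and no groups are compared. The labels call all cells lamina propria leukocytes. Fibroblasts do not carry CD45 and are cells that the beads were meant to leave behind, so their number depends on the bead separation as well as on the tissue.

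Fibroblasts build and remodel the connective tissue of the gut wall. In the colon, cells close to the epithelium express high PDGFRA and supply BMP ligands, whereas CD34+ cells deeper in the wall and around vessels supply BMP antagonists and R-spondins that sustain the crypt base. In an injured colon, fibroblasts are also known as a source of chemokines, growth factors of the epidermal growth factor family and matrix-degrading enzymes.

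Fibroblasts were 30 of 10986 kept cells in sample 1, or 0.273% (95% exact binomial interval 0.184 to 0.39), and 23 of 13223 in sample 2, or 0.174% (0.11 to 0.261). They were 171 of 11164 in sample 3, or 1.53% (1.31 to 1.78), and 93 of 8059 in sample 4, or 1.15% (0.932 to 1.41). The shares of samples 3 and 4 lay above those of samples 1 and 2 with no overlap of intervals, which cover counting error only and neither the bead separation nor differences between mice. No barcode was shared between the members of any 2 samples, and 3 member barcodes also occurred among the other kept cells of another sample. The median fibroblast held 10398, 8522, 8729 and 8016 UMIs in samples 1 to 4, and summed over members the samples held 366299, 209621, 1644514 and 849729 UMIs. A level below is the UMIs of a gene summed over the members of a sample, per 1000000 of their UMIs (CPM). Its 95% exact Poisson interval, where given, covers counting error only, and a count of 3 UMIs corresponded to 8.19, 14.3, 1.82 and 3.53 CPM.

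**Figure D1:**
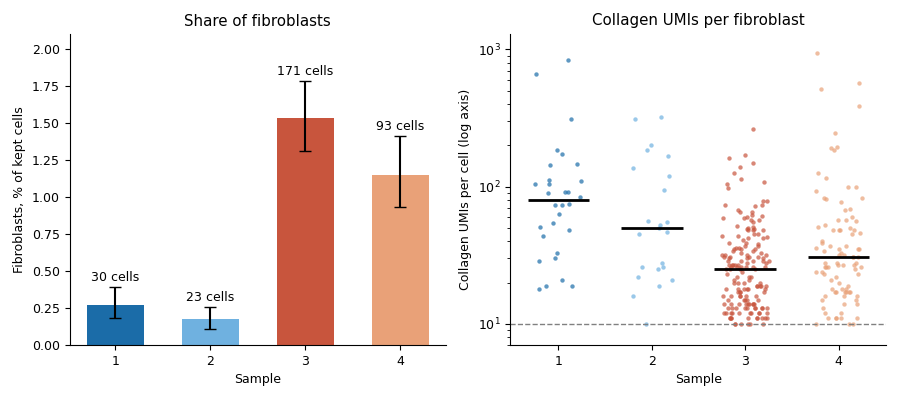
Left, share of kept cells taken as fibroblasts in each sample (bars, percent) with 95% exact binomial intervals and cell numbers. Right, summed Col1a1, Col1a2 and Col3a1 UMIs of every fibroblast on a log axis, with the sample's median as a black line and the minimum of 10 as a dashed line; the medians were 79.5, 50, 25 and 31, so members of samples 3 and 4 lay nearer to the minimum.

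The minimum did not cut all samples at the same place. Members with 10 to 14 collagen UMIs numbered 0, 1, 45 and 13 in samples 1 to 4, and cells that missed the minimum with 5 to 9 collagen UMIs numbered 4, 4, 52 and 16. In sample 3, cells just inside and just outside had like levels of Dcn (decorin, a collagen-binding proteoglycan), at 5165 and 4893 CPM, and Gsn, at 4375 and 5484 CPM. Pdgfra differed more there, at 206 CPM inside and 345 CPM outside. In sample 4 the cells inside and outside differed, with Dcn at 8916 CPM inside and 2733 CPM outside, and Cxcl13 at 728 and 3401 CPM. The lineage genes removed many further collagen-bearing cells. Cells that met the collagen and Dcn or Pdgfra conditions numbered 75, 112, 303 and 147, of which 45, 89, 132 and 54 held a UMI of a lineage gene. Most of those removed, 30, 69, 102 and 45 cells, held Ptprc, which encodes CD45.

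Of the label's markers, Bmp4 alone was not used by the rule, and the levels of the others are partly set by the selection. Dcn stood at 6552, 5291, 5935 and 6739 CPM in samples 1 to 4, against at most 8.17 CPM in the B cell gate of any sample, a set of B cells from the same libraries. For genes that B cells do not express, that gate shows how much free RNA a cell carries. Which genes these are was not tested. Bmp4, a BMP ligand, stood at 205 (interval 161 to 257), 291 (223 to 374), 226 (203 to 249.8) and 212 CPM (182 to 245), so all 4 intervals overlapped. Pdgfra, the receptor for platelet-derived growth factor A, stood at 145, 253, 267 and 392 CPM and was lowest in sample 1. Col1a1 stood at 1949, 1612, 622 and 1498 CPM and Col3a1 at 6271, 5896, 1774 and 3532 CPM, both lowest in sample 3. These genes lie on GRCm38 at chr10:97479609-97518143 (Dcn), chr14:46383520-46390669 (Bmp4), chr5:75152292-75198215 (Pdgfra), chr11:94936224-94953042 (Col1a1) and chr1:45311538-45349706 (Col3a1), with Bmp4 on the minus strand and the others on the plus strand.

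Markers of other cell types were summed by list. The rule set 7 of these genes to 0 in the members (Ptprc, Cdh5, Epcam, Cd3e, Cd79a, Csf3r and Csf1r), so the sums come from the other genes and are in part a product of the selection. The 8 pan-leukocyte genes summed to 284, 386, 186 and 181 CPM in the fibroblasts, against 4639, 5108, 4412 and 4482 CPM in the B cell gate, and Lsp1 had the highest median among them. The 12 endothelial genes summed to 81.9, 23.9, 42 and 41.2 CPM and the 12 epithelial genes to 19.1, 28.6, 18.2 and 25.9 CPM. The 6 neutrophil genes summed to 1805, 253, 418 and 447 CPM. Lcn2 had the highest median among them but lay below S100a8 in sample 2. S100a8, an alarmin abundant in neutrophils and monocytes, stood at 134, 109.7, 108 and 73 CPM against 11096, 2497, 10699 and 13562 CPM in all other kept cells. The 7 monocyte and macrophage genes summed to 180.2, 248, 62 and 43.5 CPM, the 5 T cell genes to 10.9, 23.9, 8.51 and 8.24 CPM, the 3 genes of interstitial cells of Cajal to 32.8, 19.1, 31.6 and 41.2 CPM and the 3 red blood cell genes to 0, 0, 2.43 and 0 CPM. Igkc, an immunoglobulin light chain made by B and plasma cells, stood at 801 CPM in sample 2 and at 92.8, 69.9 and 118 CPM in samples 1, 3 and 4, and a UMI of it was present in 23 of the 23 fibroblasts of sample 2. At least 1 UMI of the leukocyte genes Laptm5, Coro1a, Tyrobp or Fcer1g was present in 21 of 30, 14 of 23, 69 of 171 and 28 of 93 members. The part of leukocyte RNA in the levels of samples 1 and 2 was not tested. Of the 7 glial genes, 4 were at 0 in all samples and Gpm6b alone was high, at 538, 425, 921 and 533 CPM. The 5 mesothelial genes summed to 0, 0, 28.6 and 33 CPM.

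Smooth muscle genes came from few cells. The 8 smooth muscle genes summed to 379, 1040.0, 675 and 700.2 CPM, with Acta2 (smooth muscle actin) at 139, 296, 209.8 and 188 CPM. Members with at least 10 UMIs of these genes numbered 2, 1, 17 and 9, and they held 97.1%, 91.7%, 92.2% and 92.3% of the smooth muscle UMIs. Without them Acta2 was at 3, 15.5, 13.2 and 17.5 CPM. Rgs5, a pericyte gene, stood at 467, 81.1, 120.4 and 165 CPM and was present in 2, 2, 37 and 13 members. The myofibroblast list, which shares Acta2 and Tagln, summed to 1179, 2070.4, 1634 and 1763 CPM, and 4 of its genes reached 50 CPM in every sample. Tpm1 and Ccn1 had the highest medians in it, whereas Cthrc1 and Lrrc15 reached at most 2.35 and 1.22 CPM. Most members therefore held few UMIs of the smooth muscle genes, and the selection by collagen also admitted a small set of cells with muscle or pericyte genes.

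The matrix program reached well beyond the selecting collagens. Among 17 other collagen genes, 12 stood at 50 CPM or more in every sample, including the basement membrane chain Col4a1 at 1499, 1612, 1878 and 1222 CPM and the microfibrillar chain Col6a1 at 606, 759, 597 and 887 CPM. Col14a1, a fibril-associated collagen, varied most among them, at 128, 200.4, 40.1 and 145 CPM. Of 20 matrix glycoproteins and proteoglycans, 16 reached 50 CPM in every sample, led by Mgp, an inhibitor of calcification, at 3298, 3769, 3962 and 4479 CPM, and Lama2, a laminin chain, at 702, 706, 851 and 878 CPM. Gsn, an actin-severing protein abundant in fibroblasts, stood at 3797, 3702, 4229 and 5516 CPM. The highest sample was under 2-fold the lowest for Col4a1, Col6a1, Mgp, Lama2 and Gsn.

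Of 15 collagen folding and crosslinking genes read, 7 had a highest sample at least 2-fold the lowest, beside 41.6% of all genes. Serpinh1, the collagen chaperone, stood at 1409 and 1331 CPM in samples 1 and 2 and at 351 and 764 CPM in samples 3 and 4. Pcolce, which promotes the trimming of procollagen, stood at 197, 234, 37.7 and 65.9 CPM. Plod2, which hydroxylates collagen lysines for crosslinking, was level at 311, 315, 389.8 and 368 CPM. The protease inhibitor Timp1 stood at 996 (897 to 1104), 878 (756 to 1014), 171 (152 to 193) and 212 CPM (182 to 245). Samples 1 and 2 were the higher pair for Serpinh1, Pcolce and Timp1, but Plod2 showed no such order. Members there also held more of the selecting collagen UMIs, with medians of 79.5 and 50 against 25 and 31. The part of the selection in this order was not tested. A single cell held 57% and 38.6% of the Timp1 UMIs in samples 1 and 2, and without it the levels there were 470.3 and 556 CPM, still above those of samples 3 and 4.

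The CPM levels of the matrix metalloproteinases Mmp3 and Mmp14 were each lower in samples 1 and 2 than in samples 3 and 4, but for Mmp3 the share of members with a UMI did not follow that order. Mmp14, a membrane-bound collagenase, stood at 431, 558, 1025 and 954 CPM and was spread over cells, with no member holding more than 13.1% of its UMIs in any sample. Mmp3, a secreted stromelysin, stood at 243, 348, 876 and 889 CPM, but 1 cell held 83.1% of its UMIs in sample 1, 24.7% in sample 2, 24.4% in sample 3 and 40.4% in sample 4. A UMI of Mmp3 was present in 16.7%, 56.5%, 29.2% and 35.5% of members, against at most 1.6% of the B cell gate, and after thinning to 1000 UMIs in 10.3%, 34.8%, 17.5% and 22.6% against 0% of the B cell gate in each sample, so that the share of members with a UMI was highest in sample 2. Mmp2, a gelatinase, was level at 426, 572, 576 and 597 CPM.

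Beside these differences stand measures of RNA composition. Ribosomal protein genes made up 9.49%, 11.1%, 7.93% and 8.1% of fibroblast UMIs in samples 1 to 4, and 15%, 13.9%, 12.7% and 10.2% in the B cell gate. Malat1, a nuclear RNA, stood at 8578, 10266, 12476 and 10119.7 CPM in fibroblasts. Mitochondrial UMIs were 3.3%, 3.07%, 2.85% and 3.16%. Their part in the differences between samples was not tested.

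Chemokine transcripts were abundant in the fibroblasts of all 4 samples. Of 17 chemokine genes, 10 reached 50 CPM in every sample. Cxcl13, which attracts B cells, stood at 3205 (3024 to 3394), 4308 (4031 to 4598), 4922 (4816 to 5031) and 3139 CPM (3021 to 3260.1), against at most 2.79 CPM in the B cell gate of any sample. It was highest in sample 3, and the intervals of samples 1 and 4 overlapped. The neutrophil-attracting chemokine Cxcl1 stood at 1908, 1522, 2779 and 1673 CPM. Ccl2, which attracts monocytes, stood at 1843, 868, 3289 and 1595 CPM, with sample 2 lowest and sample 3 highest. Ccl7, a monocyte attractant, and Cxcl12, the ligand of CXCR4, were level, at 1026, 759, 826 and 869 CPM and at 1419.6, 1541, 1160.2 and 1697 CPM. Ccl11, an eosinophil attractant, was at 1168, 558, 908 and 397 CPM. Cxcl5, a further neutrophil attractant, ranged most among these, at 1963, 262, 811 and 161 CPM. In sample 1 a single cell held 60.4% of the Cxcl5 UMIs, and the level without that cell was 854 CPM. Ccl20 was at 0 UMIs in all samples, and the limit of 3 counts stood at 1.82 CPM in sample 3, which had the most fibroblast UMIs in sum.

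**Figure D2:**
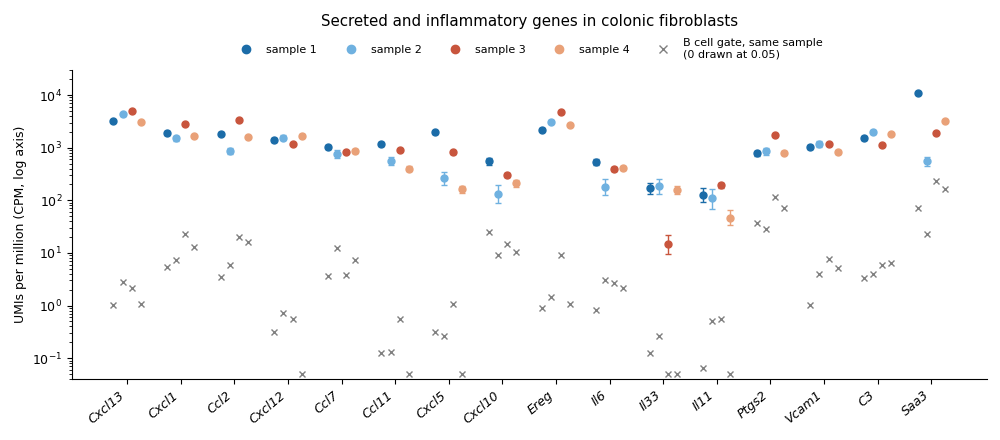
Levels of chemokine, growth factor, cytokine, prostaglandin, adhesion, complement and acute phase genes in the fibroblasts of samples 1 to 4 (filled circles, CPM on a log axis, bars 95% exact Poisson intervals) and in the B cell gate of the same samples (grey crosses). The fibroblast levels of Cxcl13 lay between 3139 and 4922 CPM, while Saa3 spread from 549 to 10775 CPM.

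Cxcl13 was read cell by cell. A cell with 0 UMIs may still express the gene. A UMI of Cxcl13 was present in 70%, 47.8%, 75.4% and 60.2% of members of samples 1 to 4, and in 0.728%, 1.96%, 1.6% and 0.694% of B cell gate cells, whose median depths were 5464, 4761, 5418 and 4878 UMIs. With cells thinned to 1000 UMIs, which left out 1 shallower member of sample 1 and so left 29 there, 55.2%, 43.5%, 69.6% and 54.8% of members still held one, against 0%, 0%, 0.4% and 0% of the B cell gate. The richest 3, 3, 18 and 10 members, about 10% of each sample, held 46.3%, 61.9%, 37.3% and 50.7% of the Cxcl13 UMIs, against 27.7%, 27.2%, 26% and 29.6% for Gsn, so Cxcl13 was less evenly spread over cells than Gsn in each sample. UMIs of Cxcl1, Ccl2, Cxcl13, Cxcl12 and Ereg occurred together in 19 of 30, 6 of 23, 112 of 171 and 41 of 93 members, at unthinned depth. Whether this exceeded what the separate share of each gene and the depth of the cells give was not tested.

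The RefSeq promoter sequences (GRCm38.p6) of the chemokine list were searched for the NF-kB consensus on both strands within the 250 bases before the start. These sequences are shown because Cxcl1, Cxcl2 and Cxcl10 were at 134 CPM or more in every sample and hold a match. Of 12 chemokine genes with a sequence, 4 held a match, or 33.3%, against 7.01% of all 27025 promoters of the same length. The fourth was Ccl20, which had 0 UMIs in every sample. Ccl2, Ccl7, Ccl11 and Cxcl5 of the list were not among the 12 and are not part of the 33.3%. Capitals mark the matching letters, 5′ to 3′ in the direction of transcription. The capitals in Cxcl1 and Cxcl2 hold 2 overlapping matches each, and those in Cxcl10 hold 4 in all, some of them overlapping. A match describes the letters and is no sign of binding, and Cxcl13 and Cxcl12, among the abundant genes here, held none in this window.
Cxcl1, chr5:90890995-90891244, plus strand: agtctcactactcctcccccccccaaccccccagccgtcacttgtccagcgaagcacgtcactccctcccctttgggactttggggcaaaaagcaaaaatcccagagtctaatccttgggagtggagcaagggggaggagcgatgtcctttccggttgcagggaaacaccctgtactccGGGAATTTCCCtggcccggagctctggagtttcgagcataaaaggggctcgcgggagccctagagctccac
Cxcl2, chr5:90903649-90903898, plus strand: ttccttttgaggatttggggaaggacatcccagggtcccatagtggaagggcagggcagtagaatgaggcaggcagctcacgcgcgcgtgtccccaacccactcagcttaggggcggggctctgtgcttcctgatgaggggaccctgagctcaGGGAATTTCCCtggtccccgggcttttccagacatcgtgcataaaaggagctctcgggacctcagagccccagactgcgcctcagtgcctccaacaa
Cxcl10, chr5:92348890-92349139, minus strand: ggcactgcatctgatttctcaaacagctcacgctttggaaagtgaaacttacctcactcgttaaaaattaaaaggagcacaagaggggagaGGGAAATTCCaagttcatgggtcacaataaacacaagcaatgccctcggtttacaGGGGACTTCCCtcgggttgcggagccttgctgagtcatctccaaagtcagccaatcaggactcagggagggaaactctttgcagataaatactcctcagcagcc
Cxcl2 stood at 942, 1441, 1223 and 649.6 CPM in the fibroblasts, against 2433, 1489, 4046 and 3906 CPM in all other kept cells. Cxcl10, an interferon-induced chemokine, stood at 551, 134, 299.8 and 209 CPM.

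Among cytokines, Il6 stood at 532, 181, 395 and 411 CPM and was present in 63.3%, 56.5%, 56.7% and 55.9% of members. The alarmin Il33 was at 169 (129.8 to 217), 186 (132 to 254), 14.6 (9.35 to 21.7) and 155 CPM (130.0 to 184), so sample 3 stood apart below the other samples. Il11, a cytokine of the IL-6 family, was at 126, 109.7, 194 and 47.1 CPM, of which 1 cell held 76.1% in sample 1. Tnf stood at 0, 0, 9.73 and 2.35 CPM, and Il1b at 24.6, 38.2, 29.2 and 14.1 CPM against 106, 126, 191 and 131 CPM in the B cell gate. Cytokine receptors were also read, with the IL-1 receptor Il1r1 at 319, 224, 460.3 and 506 CPM and the oncostatin M receptor Osmr at 352, 234, 290.1 and 264 CPM. Il22ra1, the epithelial IL-22 receptor, was at 0 UMIs in every sample.

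Growth factors for the epithelium were led by Ereg, an EGF receptor ligand at chr5:91074622-91093646, with 2203 (2054 to 2361), 3115 (2881 to 3364), 4797 (4692 to 4904) and 2729 CPM (2619 to 2842). Its highest sample was 2.18-fold its lowest and none of the 4 intervals overlapped. Ereg UMIs were present in 76.7%, 78.3%, 97.1% and 78.5% of members, and after thinning in 69%, 60.9%, 86% and 67.7%, against 0%, 0%, 0.8% and 0% of the B cell gate. Nrg1, a ligand of ERBB receptors, stood at 339, 553, 889.6 and 1383 CPM. In sample 2, however, 1 cell held 78.4% of the Nrg1 UMIs and the level without it was 125 CPM, whereas the levels without the richest cell were 228, 834 and 1248 CPM in samples 1, 3 and 4. Areg, another EGF receptor ligand, was at 58.8 CPM or below. Fgf7, which acts on epithelium, and Fgf10 were at 181 to 349.6 CPM and at 95.3 to 134 CPM. Kitl, the ligand of KIT, stood at 287, 90.6, 552 and 563 CPM.

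BMP and WNT regulators were present on both the ligand and the antagonist side. Of 15 BMP genes, 7 reached 50 CPM in every sample. The ligands Bmp4 (values above), Bmp5 at 137, 177, 142 and 161 CPM and Bmp2 at 109, 153, 184 and 180.1 CPM were level across samples. The antagonist Grem1 stood at 874 (780.5 to 975), 529.5 (436 to 638), 427 (396 to 460.3) and 228 CPM (197 to 263), with sample 1 highest and sample 4 lowest. Among 16 WNT genes only 2 reached 50 CPM in every sample, the WNT antagonists Sfrp1, at 1106, 2066, 1509 and 1171 CPM, and Dkk3, at 57.3, 129, 149.6 and 129 CPM. Rspo3, which amplifies WNT signals, was at 169, 28.6, 183 and 87.1 CPM, and Rspo2 had 0 UMIs in samples 1, 2 and 4 and stood at 0.608 CPM in sample 3. The WNT ligand Wnt5a was at 13.7, 62, 17.6 and 25.9 CPM. The colonic mesenchyme transcription factor Foxf1 was level, at 109, 114, 112 and 101 CPM, whereas Foxl1, a marker of telocytes, was at 2.73, 0, 0 and 0 CPM.

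Complement, prostaglandin, adhesion and acute phase genes completed the inflammatory set. C3, the central complement component, stood at 1507, 1965, 1146 and 1824 CPM, and 8 of 11 complement genes reached 50 CPM in every sample. Ptgs2, the inducible cyclooxygenase, stood at 781, 854, 1777 and 803 CPM, and was highest in sample 3. Vcam1 and Icam1, which bind leukocyte integrins, were level at 826 to 1197 CPM and 394 to 453 CPM. The metal-binding genes Mt1 and Mt2 stood at 3058, 3048, 5845 and 3412 CPM and at 1919, 1336, 4691 and 2622 CPM, again highest in sample 3. All 14 immediate early and heat shock genes, which respond fast to stimuli that include tissue digestion, were at 50 CPM or more in every sample, such as Fosb at 2629, 3406, 2890.2 and 2835 CPM. In all other kept cells, Fosb stood at 395, 625, 356 and 405 CPM. Against endothelial cells of samples 3 and 4, read below, 2 of the 14 genes were at least 2-fold higher in fibroblasts and 0 lower. Of all genes read there, 14.2% were at least 2-fold higher and 14.9% lower. Of 10 cell cycle genes, Pcna and Hmgb2 reached 50 CPM in every sample, at 109, 90.6, 136 and 98.9 CPM and at 66.8 to 106 CPM, whereas the mitotic genes Mki67 and Cdk1 stood at 0, 0, 2.43 and 5.88 CPM and at 0, 0, 0 and 2.35 CPM.

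Of 9 AhR pathway genes, 2, Tiparp and Arnt, reached 50 CPM in every sample. The list summed to 412, 386, 614 and 567 CPM in samples 1 to 4, against 454, 484, 493 and 461 CPM in the B cell gate. Ahr stood at 16.4, 28.6, 71.8 and 53 CPM and was present in 13.3%, 21.7%, 32.7% and 24.7% of members. After thinning, 3.45%, 4.35%, 7.6% and 5.38% of members held it, against 4%, 7.6%, 6% and 2% of the B cell gate, and the exact intervals of the members, such as 1.77% to 12.1% in sample 4, held the B cell gate's share in every sample. Cyp1a1 and Cyp1a2, classical AhR targets, had 0 UMIs in every sample, and Cyp1b1 and Ahrr reached at most 10.6 and 1.18 CPM. Tiparp, a target of AhR and of other signals, stood at 213, 157, 285 and 229 CPM, and Arnt, the dimer partner of AhR, at 158, 162, 228 and 240.1 CPM. Odc1, the first enzyme of polyamine synthesis, stood at 287, 248, 151 and 141 CPM, against 194, 246, 256 and 209 CPM in the B cell gate. The labels give no genotype, and these levels were not used to assign one.

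The spread between samples was read over all genes. Of 4405 genes at 50 CPM or more in at least 1 sample, 1834, or 41.6%, had a highest sample at least 2-fold the lowest, with counts under 3 raised to 3. The median ratio was 1.86. Sample 2, with the fewest members and UMIs, was the lowest for 1467 and the highest for 1237 of these genes, and without it 1009 genes, or 24.5%, had such a range. The 2-fold range was met by 9 of 14 chemokines, 7 of 8 cytokines and 9 of 10 subepithelial type genes tested, by 6 of 14 collagens beyond the rule, a share close to that of all genes, by 3 of 14 immediate early and heat shock genes and by 0 of 2 cell cycle genes. A low gene could be read because it was high in 1 sample, so these counts are a description. In every sample, 50 CPM was reached by 10 chemokines, 3 cytokines, 5 subepithelial type genes and all 14 immediate early and heat shock genes.

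Genes with the largest ranges differed in how many cells held their UMIs. Among the 15 genes with the largest ratio were Rgs6, Ctla2a, Cemip, Inmt, Chrm3, Lcn2, Ptn, Rgs7bp, Apold1, Lvrn, Ebf2, Prrx1, Esm1 and Sox6. Rgs6, a regulator of G protein signalling, stood at 24.6, 301, 1.22 and 7.06 CPM, and 1 cell held 98.4% of the UMIs in sample 2. Esm1 was present in 1 cell of sample 2 and in no other member. The antimicrobial gene Lcn2 stood at 1477, 23.9, 181 and 249 CPM, in 9, 3, 30 and 23 members, and 1 cell held 50.5% in sample 1. A UMI of Lcn2 was present in 30%, 13%, 17.5% and 24.7% of members and in 14.3%, 8.57%, 11.2% and 12.2% of B cell gate cells. The acute phase gene Saa3 stood at 10775, 549, 1897 and 3202 CPM. A single cell with 2692 Saa3 UMIs held 68.2% of them in sample 1, and without it the level was 3759 CPM. In all other kept cells Saa3 was at 723, 208, 3526 and 2058 CPM, and Lcn2 is also a neutrophil gene; the part of free RNA was not tested. Cemip, which degrades hyaluronan, stood at 254, 0, 1309.8 and 24.7 CPM, and in sample 3 the UMIs were spread over 42 of 171 members with 12.8% in the richest. Ctla2a, a cysteine protease inhibitor gene, stood at 19.1, 9.54, 69.9 and 1399 CPM, with UMIs in 2, 1, 6 and 15 members and 43.2% of those of sample 4 in the richest. Prrx1, a mesenchymal transcription factor, was present in 9 members of sample 4 and in none of the other samples.

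**Figure D3:**
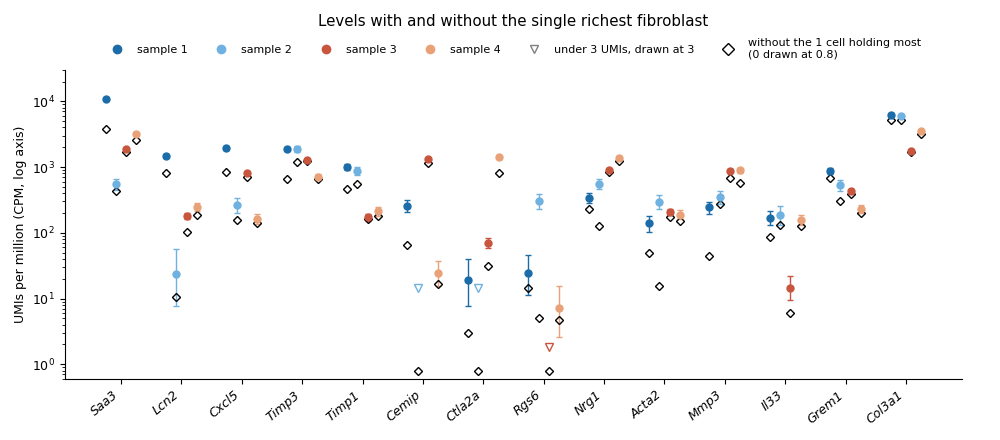
Levels of 14 genes in the fibroblasts of samples 1 to 4 (circles, CPM on a log axis, bars 95% exact Poisson intervals) and the same level without the one member that held most UMIs of the gene (black diamonds). In sample 1, Saa3 moved from 10775 to 3759 CPM, whereas in sample 3 Col3a1 moved only from 1774 to 1716 CPM.

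The fibroblasts were then set beside endothelial cells, the other stromal cells left in these preparations. The endothelial gate asked for at least 3 UMIs of Cdh5 and Pecam1 together, with none of the other lineage genes and under 10 collagen UMIs, and held 11, 11, 52 and 47 cells, so that only samples 3 and 4 had the 20 cells needed. Since both sets were chosen by measured genes, the comparison is a description. Of 4967 genes read, 707, or 14.2%, were at least 2-fold above the endothelial gate in samples 3 and 4, and 742, or 14.9%, were at least 2-fold below it. Genes were read from 50 CPM in either set, and a gene that reached this in one set only was read because it was high there, so these counts and those of the lists are a description. Above were 10 of 14 collagens beyond the rule, 13 of 19 matrix glycoproteins, 10 of 14 chemokines, 9 of 10 complement genes and 7 of 8 BMP genes. C3 was 36-fold and 101-fold higher in the fibroblasts of samples 3 and 4, and Cxcl12 5.86-fold and 6.73-fold higher. The C3 ratio of sample 4 rests on few C3 UMIs in the endothelial gate. Of 8 cytokines and alarmins, 5 were above and 1 below, and of 19 growth factors, 13 were above and 3 below. Not all inflammatory genes were thus on the fibroblast side. Il6 stood at 644 and 447 CPM in the endothelial gate against 395 and 411 CPM in fibroblasts, without passing the 2-fold rule. Csf3, a neutrophil growth factor, stood at 521 and 324 CPM against 159.9 and 63.5 CPM. Of 15 interferon and antigen presentation genes, 6 were at least 2-fold below the endothelial gate and 1 above. Kitl was lower in fibroblasts too, at 552 and 563 CPM against 1671 and 1290.2 CPM. None of 8 hypoxia and glycolysis genes and none of 3 AhR pathway genes passed the 2-fold rule in either direction. Against the B cell gate, where 23.0% of 5639 genes were at least 2-fold higher in fibroblasts in all 4 samples, the count was 12 of 14 chemokines and 0 of 9 hypoxia and glycolysis genes.

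**Figure D4:**
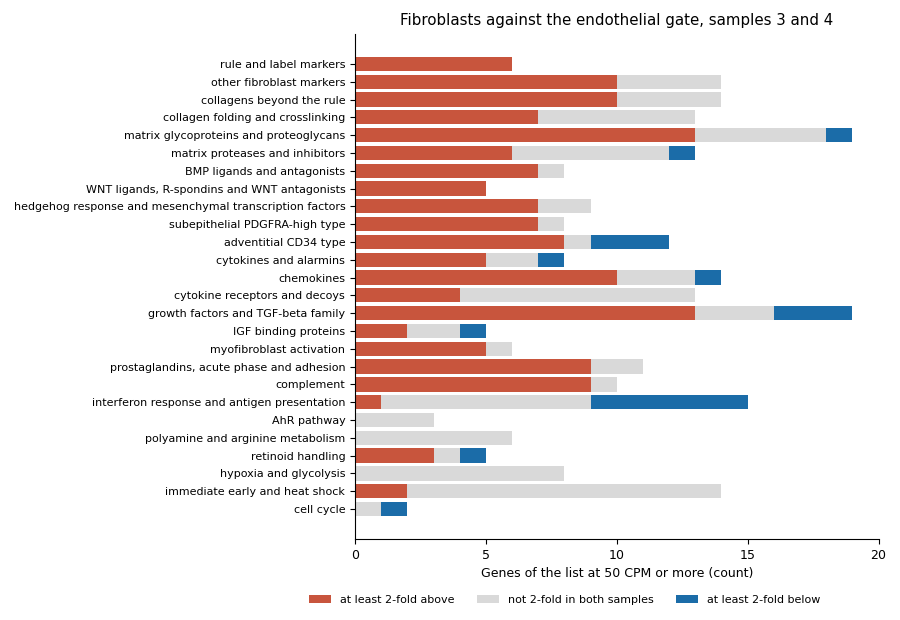
Genes of each list at 50 CPM or more in samples 3 or 4, counted by whether fibroblasts were at least 2-fold above (red) or below (blue) the endothelial gate in both samples, or neither (grey). The chemokine list has 10 of 14 genes above and the interferon list 6 of 15 below, beside 14.2% and 14.9% of all genes read.

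Finally, members were split by genes of the known layers of colonic mesenchyme. The subepithelial gate took members with at least 2 UMIs of F3, Sox6 and Bmp7 and none of Cd34, Clec3b and Pi16, and the adventitial gate took the reverse. They held 3, 1, 16 and 8 members and 14, 13, 49 and 37 members of samples 1 to 4. A further 30 members carried at least 2 UMIs of both sets, and 146 fell in none of these. The adventitial gate was the larger in each sample, with 35.6% of all members against 8.83%. The gates rest on different genes, so their sizes do not compare the sizes of the layers. As the gates depend on few UMIs, they do not mark every cell of a layer. No sample had the 20 cells in both gates set as the minimum, so samples 3 and 4 were read with a minimum of 5 cells, a choice made after these numbers were seen. Genes were read from 200 CPM in either gate summed over both samples, so a gene that reached this level in one gate only was read because it was high there, and the numbers of genes higher in a gate are a description.

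Of 1162 such genes, leaving out the 6 gate genes, 47, or 4.04%, were at least 2-fold higher in the subepithelial gate in both samples, and 66, or 5.68%, in the adventitial gate. On the subepithelial side, Tnc, a matricellular protein of remodelling tissue, stood at 1236 CPM against 39.1 CPM in sample 3 and at 3733 CPM against 234 CPM in sample 4, at least 16-fold in both. Nrg1 stood at 1769.8 against 513 CPM and at 4081 against 409.8 CPM. The BMP ligand Bmp5 was at 275 against 105 CPM and at 487 against 129 CPM, and Col12a1, a fibril-associated collagen, at 808 against 139 CPM and at 836 against 115 CPM. Tnc, Nrg1 and Bmp5 were on the subepithelial list, and Tnc, Bmp5 and Col12a1 were read through this gate alone. Pdgfra, which marks that layer when high, did not pass the 2-fold rule, at 328 against 298 CPM in sample 3 and 752 against 313 CPM in sample 4, nor did Bmp4, at 174 against 269 CPM and 292 against 284 CPM. Bmp6 was at 111 against 366 CPM and at 209 against 198 CPM. The richest cell held 36.8% and 36.9% of the subepithelial Tnc UMIs in samples 3 and 4 and 29.9% and 44% of the Nrg1 UMIs. Lcn2 was at 1067 against 7.32 CPM and at 1059 against 176 CPM, but rested on 6 of 16 and 3 of 8 cells. The smooth muscle genes Acta2, Tagln and Myh11 and the pericyte gene Abcc9 were also among the 10 genes with the largest least fold in this gate, which held 1 subepithelial list gene, Tnc. Lcn2, Acta2, Tagln, Myh11 and Abcc9 were also read through this gate alone. Abcc9 was at 264 against 36.6 CPM and at 125 against 25.2 CPM, and the gate held 122 and 5 Acta2 UMIs in samples 3 and 4. In sample 4, Acta2 was at 69.6 against 7.19 CPM, Tagln at 69.6 against 3.59 CPM and Myh11 at 55.7 CPM against 0 UMIs, on 5, 5 and 4 UMIs in the subepithelial gate. In sample 3, 5 of its 16 cells were among the members with at least 10 smooth muscle UMIs, and in sample 4 none of 8 was.

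On the adventitial side, Gsn stood at 6659 CPM against 925 CPM in sample 3 and at 8156 CPM against 487 CPM in sample 4. Mgp stood at 5646 against 761 CPM and at 5643 against 1156 CPM, and the WNT antagonist Sfrp1 at 1745 against 417 CPM and at 1829.5 against 446 CPM. Lum (lumican), Ebf1, a transcription factor, and Apoe were also among the 10 genes with the largest least fold, at 164 against 15.8, 90.3 against 10.6 and 674 against 137 CPM in sample 3. The chemokine Cxcl13 was at 5563 against 2266 CPM and at 4001 against 1226 CPM, and Ccl11 was at 1316 against 195 CPM in sample 3 and at 618 CPM against 0 UMIs in sample 4. Lum, Ebf1, Apoe and Ccl11 were read through the adventitial gate alone. Ccl7 was at 891 against 227 CPM and at 1233 against 613 CPM. Cxcl5 was higher in the subepithelial gate in both samples, without passing the rule, at 1062 against 522 CPM and at 237 against 119 CPM. Il6 was higher at 417 against 158 CPM and at 564 against 69.6 CPM, and was likewise read through the adventitial gate alone. Of 8 adventitial list genes read, 2 passed the 2-fold rule, and both were read through the adventitial gate alone. Has1 was at 209.9 against 21.1 CPM and at 575 against 237 CPM, and Cd55 at 215 against 42.3 CPM and at 205 against 55.7 CPM. Grem1 and C3 were higher in the adventitial gate in both samples without passing the rule. Rspo3 went opposite ways, at 295 against 21.1 CPM in sample 3 and at 101 against 153 CPM in sample 4. Gpx3 and Ly6c1 were higher in the subepithelial gate in both samples, without passing the rule. There Gpx3 was at 1051 against 918 CPM and at 2521 against 841 CPM, and Ly6c1 at 269 against 251 CPM and at 418 against 291 CPM. Ly6a was higher in the subepithelial gate in sample 4 only, at 1574 against 701 CPM. Dcn at 5761 against 4797 CPM and at 7688 against 5752 CPM, and Col3a1 at 1330.3 against 1765 CPM and at 3810.1 against 2953 CPM, were under 2-fold in both samples. Ereg went opposite ways, with 4494 CPM in the adventitial gate against 3629 CPM in the subepithelial gate of sample 3 and 2703 CPM against 8190.0 CPM in sample 4.

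**Figure D5:**
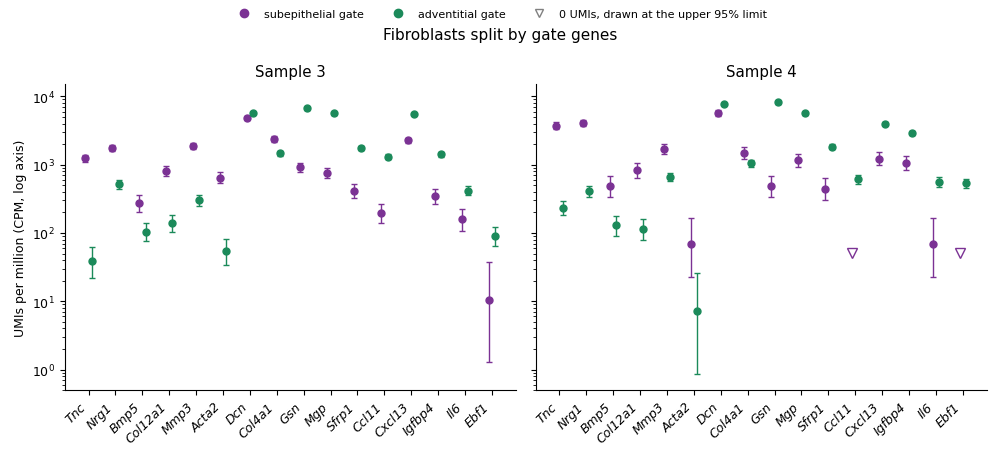
Levels of 16 genes in the subepithelial gate (purple) and the adventitial gate (green) in sample 3 and in sample 4, in CPM on a log axis with 95% exact Poisson intervals. Tnc, Nrg1, Bmp5 and Col12a1 lay higher in the subepithelial gate and Gsn, Mgp, Sfrp1 and Cxcl13 in the adventitial gate in both samples, while Dcn was near level.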

How the data were processed

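Lamina propria cells of 4 DSS-treated mouse colon samples were profiled by droplet single-cell RNA sequencing. The deposited values are unnormalised UMI counts, 1 matrix of genes by cells for each sample. The submitters' processing notes name Cell Ranger 5.0.0, STAR, Seurat and the mm10 genome, the matrix headers name Cell Ranger 7.0.1, and the intron setting is not given in the sources used here. From these counts, cells with at least 200 genes and under 20% mitochondrial UMIs were kept (Python 3.11.15, numpy 2.4.6, scipy 1.17.1, pandas 2.3.3), and fibroblasts, the endothelial gate and the B cell gate (at least 3 UMIs of Cd79a and Ms4a1) were taken by raw UMIs. UMIs were summed per sample and given as CPM. Sample totals were 113806334, 135516016, 101579112 and 72509408 UMIs. The labels put no sample in an AhR group, so no test was run and no p-value is given. Genes were called by size, at least 2-fold among genes at 50 CPM or more, with counts under 3 raised to 3 in the lower value. Intervals are exact (95%) and cover counting error only. Scripts were tested on simulated data.

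The members, the gene lists and the gates were chosen with earlier results of these data known. In each list the text could name the 4 genes with the highest median level and the gene with the largest ratio between samples, then the 15 genes with the largest ratio among all genes, the 10 genes each way with the largest fold between gates, and any gene of the AhR, BMP, WNT and cytokine lists. Other named genes were chosen for their role after their values were seen, and some genes that the rule allows are not reported here. Of 448 listed genes, 444 were found by symbol. Coordinates are from GENCODE M21 (GRCm38), which held 32235 of the 32285 gene IDs. Alternatives covered the cell filters, the collagen and lineage thresholds, doublet removal by Scrublet (scanpy 1.11.5), the CPM minimum, the gate minimum, mean single-cell CPM, thinning to 1000 UMIs and leaving out each sample. No doublets were removed in the main values.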

Additional observations from a re-analysis of the deposited data

How the results depend on the processing

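Across 314 alternative values, which are counts, shares and levels with no test, 288 moved by less than the allowance (1 SD between samples for a level or a share of members, 1.5 times for a count or a percent of genes, the counting interval for the share of kept cells) and 26 moved by more. Among 200 median CPM values, 195 moved by less than that SD and 5 by more; where samples differ widely, as for Timp1 and Col3a1, a large move can lie within it. When cells with a UMI of Laptm5, Coro1a, Tyrobp or Fcer1g were barred, samples 1 and 2 fell under 20 members and the median was that of samples 3 and 4 alone, which with all members stood at 889.6 and 1383 CPM for Nrg1, 876 and 889 CPM for Mmp3, 1774 and 3532 CPM for Col3a1 and 171 and 212 CPM for Timp1. The median then went for Nrg1 from 722 to 1269 CPM, for Mmp3 from 612 to 1019 CPM, for Col3a1 from 4714 to 2819 CPM, for Timp1 from 545 to 198 CPM and for Gsn and Mgp to 4992 and 4893 CPM. The mean of single-cell CPM gave 5271 CPM for Gsn and 344 CPM for Timp1. The median levels of Dcn (6244 CPM), Cxcl13 (3756 CPM) and Ereg (2922 CPM) were among those that moved by less. The median share of 0.714% became 0.831% with collagens at 5 or more, 0.526% at 20 or more, 0.947% with at most 1 lineage UMI, 0.444% when cells with a UMI of those 4 genes were also barred, and 0.649% without members holding 10 or more smooth muscle UMIs, an alternative chosen after seeing the data. Barring those 4 genes left 185 of 317 members (9, 9, 102 and 65 in samples 1 to 4), with 13 in the subepithelial gate and 68 in the adventitial gate, against 28 and 113. Only samples 3 and 4 could then be read, and 312 genes, or 8.07%, had a 2-fold range. The parts of the fewer samples and of the barred cells in that number were not told apart. The gate genes could not be read under that setting. The 1834 genes with a 2-fold range, or 41.6%, became 402 of 1255, or 32%, at 200 CPM or more, and between 1009 and 1432 genes, or 24.5% to 33.7%, when each sample was left out in turn, with the lowest without sample 2. Collagens at 20 or more left 72 cells in the adventitial gate. With a gate minimum of 1 UMI, 30 and 42 genes were higher in the subepithelial and the adventitial gate, against 47 and 66. Thinning to 1000 UMIs took the median share of members with a UMI from 72% to 20.4% for Bmp4, 78.4% to 68.3% for Ereg, 56.6% to 21.8% for Il6, 49.2% to 21.8% for Nrg1 and 23.2% to 4.87% for Ahr. Where no construction of the alternative shows it, the cause was not tested. Scrublet scores removed 1 of the 317 members. No paired analysis was possible because the labels put the samples in no group. Samples 1 and 2 rest on 30 and 23 members, so that single cells weigh most there.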

Other observations

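Gbp2, an interferon-induced GTPase, stood at 415, 71.6, 189.7 and 120.0 CPM in samples 1 to 4. Another gene of interferon response, Isg15, an interferon-induced ubiquitin-like protein, stood at 81.9, 14.3, 16.4 and 8.24 CPM, with 56.7% of the UMIs of sample 1 in a single cell. Cxcl9, an interferon-gamma-induced chemokine, stood at 268, 0, 124 and 62.4 CPM, with 64.3% of the UMIs of sample 1 in a single cell. Aldh1a3, which makes retinoic acid, stood at 8.19, 52.5, 96.1 and 57.7 CPM. The insulin-like growth factor gene Igf1 stood at 284, 229, 68.7 and 367 CPM and was lowest in sample 3, the sample that was also lowest for Il33, Lum and Col1a1, a gene of the rule. Of the 4405 genes at 50 CPM or more in at least 1 sample, sample 3 was the lowest for 902 and the highest for 1245. Gapdh, a glycolytic enzyme, stood at 669, 549, 286 and 193 CPM.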
